A study of Homo sapiens with 12 samples.

Results

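Genes of ribosome biogenesis and of the nucleolus were followed in Granta-519 and JeKo-1, human cell lines from mantle cell lymphoma. In this B-cell tumour the cyclin D1 gene, CCND1, is typically turned on by a chromosome translocation. The set is a fixed list of 50 gene symbols, which was looked up in the deposited expression table of each line. All 50 were found, once each, among 23617 symbols in the Granta-519 table and 23615 in the JeKo-1 table, and all 50 were high enough to be tested in both lines. Both groups of a line carried a lentivirus and had been through puromycin selection; the virus held a control shRNA in the group shCtrl and an shRNA that silences cyclin D1 in the group shCycD1. Each of the 4 groups holds 3 libraries of messenger RNA, which the series design calls biological replicates. Each group is 1 established line grown in culture. The labels give neither the time after infection nor the number of shRNA sequences used.

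Ribosomes are assembled in the nucleolus. RNA polymerase I copies the ribosomal DNA into a long precursor, small nucleolar RNA-protein particles (snoRNPs) modify its nucleotides, and processing factors cut and fold it into the RNAs of the small and the large subunit. Most of these factors are made in proportion to cell growth, and many of their genes are textbook targets of the transcription factor MYC, which binds the E-box sequence CACGTG.

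The promoters of 6 of the genes are shown because each holds that E-box close to the start of transcription and because the genes cover the patterns found here. FBL and MRTO4 fell in both lines, UTP20 and GNL2 were called lower in JeKo-1, RRP9 was called lower in Granta-519 and NOP10 rose in JeKo-1. Each sequence runs 5′ to 3′ on the strand of the gene, from 100 bases before to 30 bases after the start, and comes from RefSeq on the build GRCh38.p14. The E-box is in capitals.
FBL: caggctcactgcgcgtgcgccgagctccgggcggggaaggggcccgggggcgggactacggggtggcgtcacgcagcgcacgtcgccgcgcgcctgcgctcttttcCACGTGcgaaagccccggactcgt
MRTO4: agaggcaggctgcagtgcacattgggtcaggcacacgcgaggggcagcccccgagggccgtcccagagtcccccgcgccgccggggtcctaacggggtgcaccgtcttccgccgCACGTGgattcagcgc
UTP20: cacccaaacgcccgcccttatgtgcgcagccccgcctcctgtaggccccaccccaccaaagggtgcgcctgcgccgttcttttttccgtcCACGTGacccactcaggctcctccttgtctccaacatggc
GNL2: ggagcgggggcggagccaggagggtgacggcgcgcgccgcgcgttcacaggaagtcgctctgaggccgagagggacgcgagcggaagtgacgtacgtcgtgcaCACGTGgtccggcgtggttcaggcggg
RRP9: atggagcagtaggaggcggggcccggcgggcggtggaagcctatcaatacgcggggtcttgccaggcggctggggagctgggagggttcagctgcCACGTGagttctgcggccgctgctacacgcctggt
NOP10: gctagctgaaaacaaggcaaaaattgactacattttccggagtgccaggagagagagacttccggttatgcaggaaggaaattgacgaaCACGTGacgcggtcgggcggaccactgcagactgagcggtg
The FBL window is chr19:39846350-39846479 on the minus strand, MRTO4 is chr1:19251705-19251834 on the plus strand and UTP20 is chr12:101280005-101280134 on the plus strand. GNL2 is chr1:37595908-37596037, RRP9 is chr3:51941875-51942004 and NOP10 is chr15:34343107-34343236, all on the minus strand.

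Over windows from 250 bases before to 50 bases after the start, 42 of the 50 genes had a RefSeq promoter. NOP58, NOLC1, POLR1E, RRP12, BOP1, RRP1B, RRS1 and DDX18 had none. CACGTG stood in 18 of the 42 (42.9%), against 8.77% of 27305 genes with a window and 13.4% of the 7684 of them that were tested in both lines. It reads the same on both strands. The members with an E-box were FBL, NOP10, GAR1, NOP14, WDR43, RRP9, UTP20, BYSL, IMP4, RCL1, PES1, NOP2, EBNA1BP2, GNL2, GNL3, MRTO4, LYAR and DDX21. The motif CCGGAAG of ETS factors, searched on both strands, stood in 15 of the 42 (35.7%), against 12.2% of all genes and 25.6% of tested genes. Neither TTTCGCGC nor TTTGGCGC, forms of the E2F motif, was found in the 42 windows on either strand, against 1.4% and 2.69%. These are matches of letters and show no binding.

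The libraries were alike within groups. Log2 values correlated across genes at r of 0.98 to 0.99 within the groups of Granta-519 and 0.97 within those of JeKo-1, and at 0.95 to 0.96 and 0.88 to 0.90 between groups. CCND1 was at 924, 1044 and 874 RPKM in shCtrl and 213, 298 and 292 RPKM in shCycD1 of Granta-519, and at 395, 330.1 and 315 RPKM in shCtrl and 65.4, 64.8 and 67.4 RPKM in shCycD1 of JeKo-1, so the silenced libraries were lower throughout. RPKM are reads scaled by gene length and library depth. The depth behind the JeKo-1 values is unknown, and levels are not compared between the tables because these use different gene lengths. All 7 B-cell markers were above 0 in every library, and of these 4 fell in Granta-519 while 3 rose and 1 fell in JeKo-1. Markers of T and NK cells summed to 0.722 to 1.25 RPKM in Granta-519 and 2.18 to 2.85 RPKM in JeKo-1, myeloid markers to 38.9 to 51.7 and 1.82 to 2.39 RPKM, and epithelial, fibroblast and kidney markers to 9.2 to 14.2 and 2.24 to 3.26 RPKM. Their part in the results was not tested.

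In values as deposited, more of the 50 genes fell than rose in both lines. In Granta-519, 15 of the 50 genes fell (30%, where 18.2% of the 12668 genes tested fell) and 1 rose (2%, against 22.4%), and 34 were not called (limma, Benjamini-Hochberg adjusted p under 0.05 over all genes tested). The median log2 change was -0.11, against 0.03 over all genes, with a range of -0.72 to 0.26 and 37 genes below 0. In JeKo-1, 26 fell (52%, against 27.8% of 11866 genes) and 5 rose (10%, against 36.7%), with 19 not called. The median there was -0.24, against 0.09 over all genes, with a range of -1.08 to 0.55 and 40 genes below 0. Every shCycD1 library was lower than every shCtrl library for 18 genes in Granta-519 (24.2% of all genes) and 28 in JeKo-1 (30.5%), and higher for 4 (29.8%) and 5 (39.1%). All changes are differences of log2(RPKM + 0.5) between groups, shCycD1 minus shCtrl, which understates those of low genes.

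The summed share of the set moved the same way. The 50 genes made up 0.801 to 0.819% of all RPKM in the shCtrl libraries of Granta-519 and 0.714 to 0.739% in the shCycD1 libraries. The JeKo-1 shares were 0.675 to 0.718% and 0.593 to 0.614%. The groups did not overlap in either line, and a share does not change when a library is rescaled as a whole. In bulk RNA, fewer cells expressing a gene and less RNA of it per cell cannot be told apart.

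These values are relative, and the scaling matters most in Granta-519. Synthetic spike-in RNAs were measured in all libraries. Spike-in levels stood at log2 deviations of 0.12, 0.84 and 0.19 from the line's average in the Granta-519 shCtrl libraries and at -0.47, -0.24 and -0.40 in the shCycD1 libraries, with shCtrl 2 apart from the rest. With libraries scaled by them, all Granta-519 genes had a median of 0.72, with 57.9% called higher and 1.24% lower. All 50 members then stood above 0, with a median of 0.62, 23 risen and 0 fallen (limma; 32 and 0 at an unadjusted p under 0.05). Without shCtrl 2, and with no spike-in scaling, 14 of the 50 fell and 0 rose in that line. In JeKo-1 the spike-in levels of the groups overlapped. There the same scaling gave a median of -0.03 over all genes, of which 14.3% rose and 15.1% fell, and left 6 fallen members (FBL, GAR1, UTP15, UTP20, BRIX1 and LYAR) and 0 risen (limma; 13 and 0 at an unadjusted p under 0.05), with a median of -0.37. The JeKo-1 median of the members as deposited was -0.24, so fewer calls came with changes further below 0. Their median standard error was 0.33 with the scaling, against 0.09 as deposited. Each fall of a member given for Granta-519 from here on is a fall against the other genes, and its value lies above 0 with spike-in scaling.

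**Figure D1:**
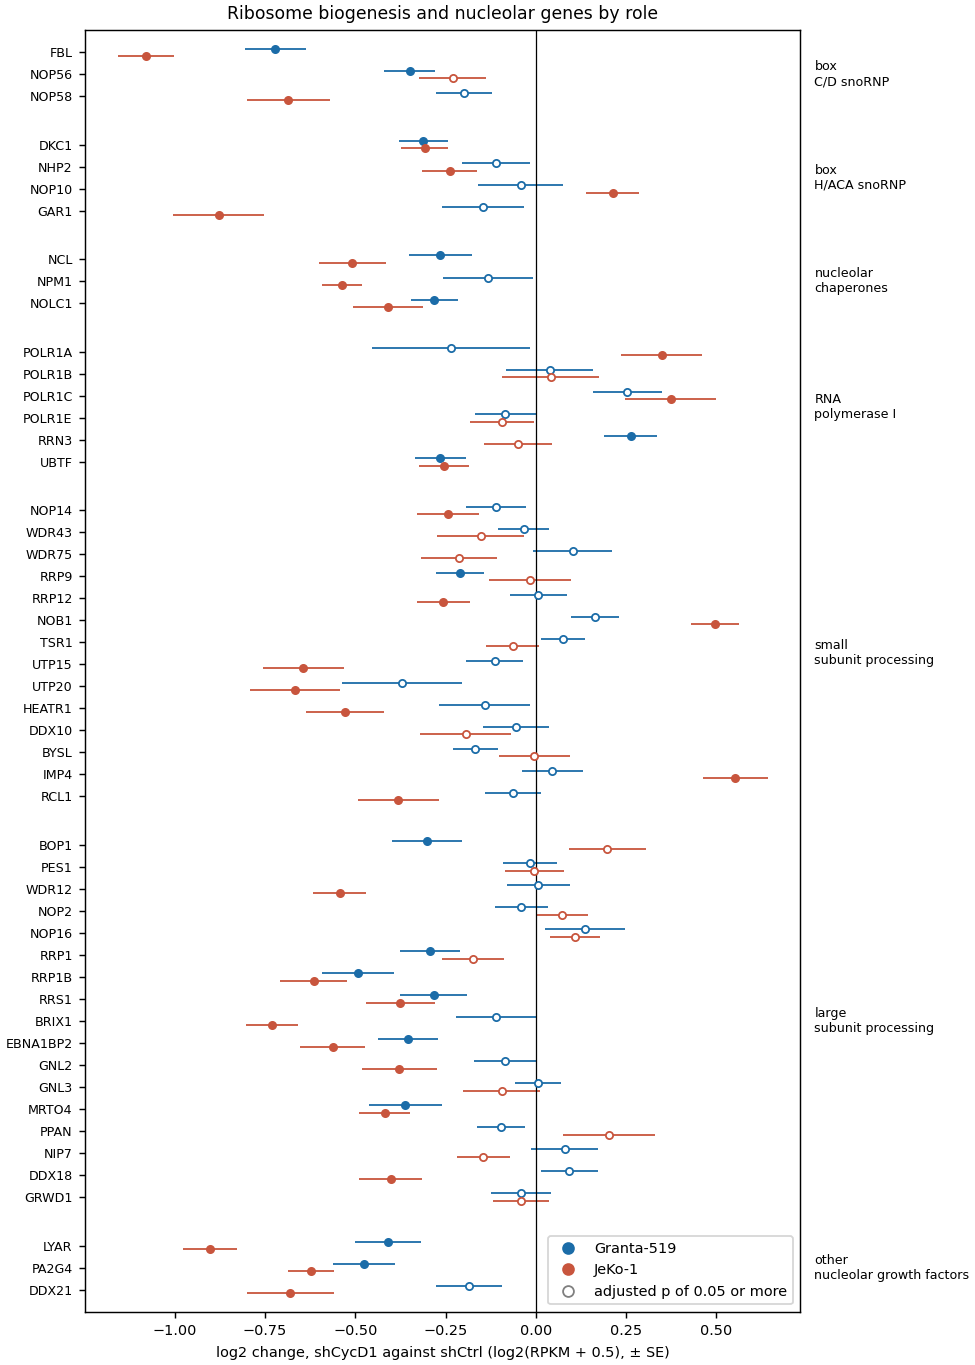
Log2 change (x axis, shCycD1 minus shCtrl, log2(RPKM + 0.5), as deposited) of each of the 50 genes (y axis, grouped by role) in Granta-519 (blue) and JeKo-1 (red); bars are standard errors, n = 3 libraries a group, and filled points have an adjusted p under 0.05. Granta-519 values lie between -0.72 and 0.26 and JeKo-1 values between -1.08 and 0.55, and with spike-in scaling all Granta-519 values lie above 0.

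**Figure D2:**
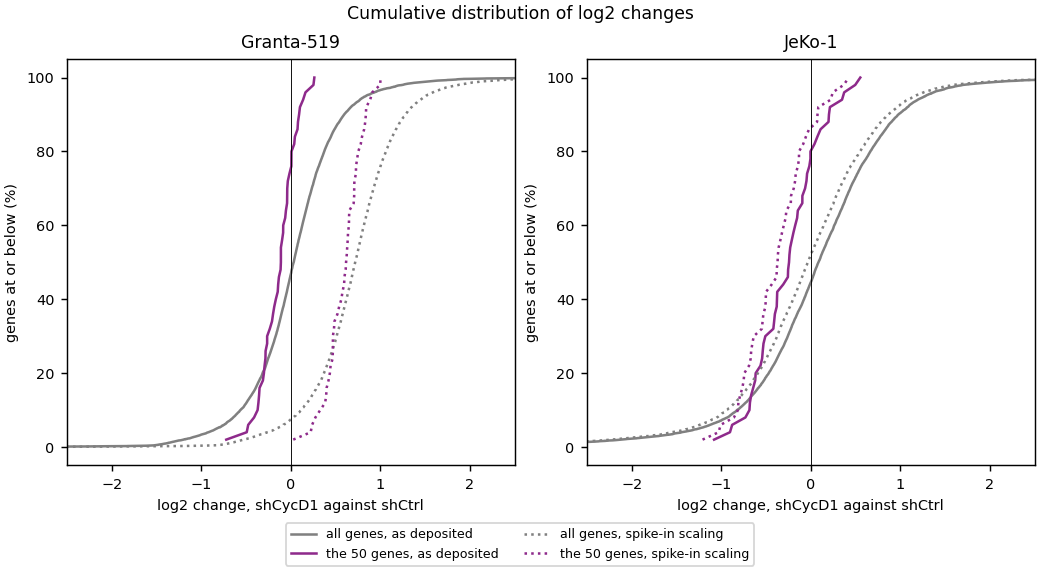
Share of genes (y axis, percent) at or below a log2 change (x axis, shCycD1 minus shCtrl) for all genes tested (grey) and the 50 genes (purple), as deposited (solid) and with spike-in scaling (dotted), in each line. The median of the 50 genes is below that of all genes in every case, at -0.11 against 0.03 and 0.62 against 0.72 in Granta-519, and at -0.24 against 0.09 and -0.37 against -0.03 in JeKo-1.

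Proteins of the box C/D snoRNPs, which methylate ribosomal RNA, held the most strongly changed member. Of 3 genes 2 fell in each line, with medians of -0.35 in Granta-519 (0.40 with spike-in scaling) and -0.69 in JeKo-1. That is 66.7%, where 18.2% of all genes fell in Granta-519 and 27.8% in JeKo-1. FBL encodes fibrillarin, the methyltransferase of these particles. Its libraries in Granta-519 stood at 127, 135 and 113 RPKM in shCtrl and 72.3, 76.3 and 77.6 RPKM in shCycD1. Those of JeKo-1 stood at 182, 179 and 165 RPKM in shCtrl and 83.2, 88.3 and 76.9 RPKM in shCycD1. The groups were far apart in both lines: FBL fell by 0.72 ± 0.08 (SE, adjusted p = 0.000944) in Granta-519 and by 1.08 ± 0.08 (SE, adjusted p = 2.84e-05) in JeKo-1. Its mean dropped by 39.6% and by 52.8%. It was the member with the largest change in each line.

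NOP56 and NOP58 form the core scaffold around fibrillarin. NOP56 in Granta-519 was at 138, 146 and 139 RPKM in shCtrl and 103, 114 and 115 RPKM in shCycD1, with no overlap, and fell by 0.35 ± 0.07 (SE, adjusted p = 0.00831). In JeKo-1 its groups overlapped, at 241, 201 and 230.4 RPKM in shCtrl and 197, 201 and 174 RPKM in shCycD1, and its change was -0.23 ± 0.09 (SE, adjusted p = 0.0626). NOP58 showed the reverse order of calls. Its Granta-519 libraries were at 30.4, 31.5 and 28.9 RPKM in shCtrl and 28.3, 25.8 and 24.9 RPKM in shCycD1, a small step without overlap that did not pass the test at -0.20 ± 0.08 (SE, adjusted p = 0.081). Its JeKo-1 libraries were at 129, 108 and 143 RPKM in shCtrl and 78.8, 72 and 84.1 RPKM in shCycD1, and it fell by 0.69 ± 0.12 (SE, adjusted p = 0.00153). A correction for GC content, described further on, left the JeKo-1 value of NOP58 at -0.37 and made that of NOP56 a call.

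The box H/ACA snoRNPs convert uridines of ribosomal RNA to pseudouridine. Of their 4 core genes 1 fell in Granta-519 (median -0.13, and 0.62 with spike-in scaling), and in JeKo-1 3 fell and 1 rose (median -0.27). The fallen share was 25% in Granta-519, near the 18.2% of all genes. In JeKo-1 75% fell and 25% rose, against 27.8% and 36.7%. DKC1 encodes dyskerin, the enzyme of the particle. Its Granta-519 libraries stood at 108, 103 and 104 RPKM in shCtrl and 84.9, 80.1 and 88.7 RPKM in shCycD1. In JeKo-1 they stood at 95, 88.9 and 94.1 RPKM in shCtrl and 75.3, 76.8 and 72 RPKM in shCycD1. The steps were alike: DKC1 fell by 0.31 ± 0.07 (SE, adjusted p = 0.0104) and by 0.31 ± 0.06 (SE, adjusted p = 0.00439), and the difference between the lines was -0.0036 ± 0.09 (SE, adjusted p = 0.977).

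GAR1 is another core protein of the particle. Its libraries overlapped in Granta-519, at 50.3, 59.5 and 57 RPKM in shCtrl and 52.8, 43.1 and 55.1 RPKM in shCycD1, with a change of -0.15 ± 0.11 (SE, adjusted p = 0.348). In JeKo-1 they were at 72.1, 98.8 and 83 RPKM in shCtrl and 40.8, 48.4 and 47.5 RPKM in shCycD1, without overlap, and GAR1 fell by 0.88 ± 0.13 (SE, adjusted p = 0.000737). NHP2 was at -0.11 ± 0.09 (SE, adjusted p = 0.386) in Granta-519 and fell by 0.24 ± 0.08 (SE, adjusted p = 0.0277) in JeKo-1. NOP10, the smallest protein of the particle, went the other way: it was at -0.04 ± 0.12 (SE, adjusted p = 0.804) in Granta-519 and rose by 0.21 ± 0.07 (SE, adjusted p = 0.0356) in JeKo-1, from libraries at 191, 176 and 167 RPKM in shCtrl and 209, 214 and 196 RPKM in shCycD1. The JeKo-1 calls of NHP2 and NOP10 were each lost in 4 of the 6 fits without 1 library, with values that kept their sign. The NHP2 call ended without shCtrl 1 or 2 or shCycD1 1 or 3 (values of -0.25 to -0.19) and with quantile normalization, and the NOP10 call without shCtrl 2 or 3 or shCycD1 1 or 2 (values of 0.17 to 0.21).

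Nucleolar chaperones fell in JeKo-1 in 3 of 3 cases (median -0.51) and in Granta-519 in 2 of 3 (median -0.26, and 0.49 with spike-in scaling). Of all genes 27.8% fell in JeKo-1 and 18.2% in Granta-519. NPM1 and NCL together held 17.3 to 19.6% of the set's summed RPKM in Granta-519. In shCtrl of that line NCL had a mean of 936 RPKM and NPM1 of 187 RPKM. The JeKo-1 share of the pair was 37.9 to 38.6% in shCtrl and 33.1 to 34.1% in shCycD1. NPM1 encodes nucleophosmin, a histone and ribosome chaperone of the granular nucleolus. In JeKo-1 it had the highest level per length of the 50, at 1392, 1409 and 1401 RPKM in shCtrl and 955, 985 and 956 RPKM in shCycD1, and fell by 0.54 ± 0.06 (SE, adjusted p = 0.000151). Its groups overlapped in Granta-519, at 166, 218 and 177 RPKM in shCtrl and 163, 157 and 189.7 RPKM in shCycD1, with a change of -0.13 ± 0.12 (SE, adjusted p = 0.429). The reference annotation names 45 pseudogenes after NPM1, and 5 each after DDX18 and PA2G4, and 1 to 3 after NOP56, NHP2, NCL, RRN3, DDX10, PES1, BRIX1, GNL2, NIP7 and LYAR, so values of these genes are uncertain where reads were shared with copies.

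NCL encodes nucleolin, which binds nascent ribosomal RNA. It stood at 913, 949.9 and 944 RPKM in shCtrl and 769, 714 and 860.1 RPKM in shCycD1 of Granta-519 and fell by 0.26 ± 0.09 (SE, adjusted p = 0.0472). The JeKo-1 libraries were at 726, 651 and 819 RPKM in shCtrl and 492, 515 and 531 RPKM in shCycD1, and NCL fell by 0.51 ± 0.09 (SE, adjusted p = 0.00218). NOLC1, a chaperone of snoRNPs, was at 275, 267 and 289.7 RPKM in shCtrl and 223, 226 and 234 RPKM in shCycD1 of Granta-519, without overlap. Its JeKo-1 libraries were at 174, 158 and 202 RPKM in shCtrl and 134, 128 and 138 RPKM in shCycD1, also without overlap. NOLC1 fell by 0.28 ± 0.07 (SE, adjusted p = 0.0136) and by 0.41 ± 0.10 (SE, adjusted p = 0.0078). The Granta-519 call of NCL was lost without any 1 library other than shCycD1 3 (values of -0.28 to -0.20), and that of NOLC1 without shCycD1 1 (-0.27). Quantile normalization ended the JeKo-1 calls of both (-0.28 and -0.22).

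The genes of RNA polymerase I and its factors did not share one direction. Of 6 genes 1 rose and 1 fell in Granta-519 (median -0.02, and 0.72 with spike-in scaling), and 2 rose and 1 fell in JeKo-1 (median -0.0038, and 0.21 with a GC correction). In Granta-519 16.7% rose and 16.7% fell, against 22.4% and 18.2% of all genes. In JeKo-1 33.3% rose and 16.7% fell, against 36.7% and 27.8%. For 6 genes these shares are near those of all genes. UBTF encodes the upstream binding factor that keeps ribosomal DNA open. It was at 79.9, 75 and 85.2 RPKM in shCtrl and 65.8, 65.2 and 68.3 RPKM in shCycD1 of Granta-519 and at 49.9, 47.8 and 50.8 RPKM in shCtrl and 40.1, 43.7 and 40.6 RPKM in shCycD1 of JeKo-1. The groups did not overlap, and UBTF fell by 0.26 ± 0.07 (SE, adjusted p = 0.0245) and by 0.25 ± 0.07 (SE, adjusted p = 0.0144). The Granta-519 call was lost without any 1 library other than shCtrl 2 (values of -0.28 to -0.22), and the JeKo-1 call without shCycD1 1 or 3 (-0.23 and -0.24).

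POLR1A and POLR1C, core subunits of the enzyme, were called higher in JeKo-1. POLR1B, another core subunit, overlapped between the groups there, at 0.04 ± 0.13 (SE, adjusted p = 0.807). POLR1A, the largest subunit, had JeKo-1 libraries at 18, 20.6 and 22.7 RPKM in shCtrl and 24.1, 29 and 25.2 RPKM in shCycD1 and rose by 0.35 ± 0.11 (SE, adjusted p = 0.028). Its Granta-519 libraries overlapped, at 12.1, 7.11 and 11.8 RPKM in shCtrl and 7.49, 10.3 and 7.96 RPKM in shCycD1, with a change of -0.23 ± 0.22 (SE, adjusted p = 0.425), and its shCtrl 2 library was the lowest of the 6. POLR1C, a subunit shared with RNA polymerase III, rose by 0.37 ± 0.13 (SE, adjusted p = 0.034) in JeKo-1 and was at 0.25 ± 0.10 (SE, adjusted p = 0.0736) in Granta-519, where its shCycD1 libraries were all higher. RRN3, the initiation factor that couples the polymerase to its promoter, was the only member that rose in Granta-519, by 0.26 ± 0.07 (SE, adjusted p = 0.0275), from libraries at 30.1, 29 and 32.5 RPKM in shCtrl and 37.7, 35.1 and 37.3 RPKM in shCycD1. In JeKo-1 RRN3 was at -0.05 ± 0.09 (SE, adjusted p = 0.675), and the difference between the lines was 0.31 ± 0.12 (SE, adjusted p = 0.0512). POLR1B and POLR1E were called in neither line.

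Each of these calls of a rise was lost in 4 of the 6 fits without 1 library, with values that stayed above 0. The RRN3 call needed shCtrl 1 and 2 and shCycD1 1 and 3 (0.23 to 0.25 without each of these in turn). That of POLR1A needed shCtrl 1 and 2 and shCycD1 2 and 3 (0.26 to 0.37 without each), and that of POLR1C needed shCtrl 1 and 2 and shCycD1 1 and 3 (0.25 to 0.40). Without shCtrl 2 of Granta-519, POLR1A was called lower in that line (-0.47), and without shCycD1 2 POLR1C was called higher (0.34).

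Genes of small subunit processing were the least changed large group in Granta-519. There 1 of 14 fell (median -0.06, and 0.63 with spike-in scaling), while in JeKo-1 6 fell and 2 rose (median -0.20). The fallen share was 7.14% in Granta-519, below the 18.2% of all genes. In JeKo-1 42.9% fell and 14.3% rose, against 27.8% and 36.7%. RRP9, a protein of the particle that guides the first cuts of the precursor, was the 1 called in Granta-519. It stood at 19.9, 20.1 and 19.1 RPKM in shCtrl and 16.8, 16.6 and 17.4 RPKM in shCycD1 and fell by 0.21 ± 0.07 (SE, adjusted p = 0.0418). That call needs every library, since leaving out each of the 6 in turn ended it (-0.23 to -0.20). RRP9 was at -0.02 ± 0.11 (SE, adjusted p = 0.909) in JeKo-1.

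The 6 falls in JeKo-1 were led by UTP20, UTP15 and HEATR1, components of the early small subunit processome. UTP20 stood at 12.2, 15.4 and 16.2 RPKM in shCtrl and 8.13, 9.55 and 9.25 RPKM in shCycD1 and fell by 0.67 ± 0.13 (SE, adjusted p = 0.00264). In Granta-519 it was at 2.98, 1.91 and 2.99 RPKM in shCtrl and 1.64, 2.1 and 1.93 RPKM in shCycD1, where 1 shCtrl library lay within the shCycD1 range, and its change was -0.37 ± 0.17 (SE, adjusted p = 0.119). Without that library, shCtrl 2, it was called lower in Granta-519 (-0.55). UTP15 stood at 11.6, 10.00 and 12.5 RPKM in shCtrl and 7.45, 6.36 and 7.45 RPKM in shCycD1 of JeKo-1 and fell by 0.64 ± 0.11 (SE, adjusted p = 0.00188). Its Granta-519 groups overlapped slightly, at 16.6, 15.2 and 17.6 RPKM in shCtrl and 15, 15.1 and 15.5 RPKM in shCycD1, with a change of -0.11 ± 0.08 (SE, adjusted p = 0.287). HEATR1 fell by 0.53 ± 0.11 (SE, adjusted p = 0.00386) in JeKo-1 and was at -0.14 ± 0.13 (SE, adjusted p = 0.408) in Granta-519, where it too was called lower without shCtrl 2 (-0.28). NOP14, RRP12 and RCL1 fell in JeKo-1 by 0.24, 0.26 and 0.38. Those calls were lost without any 1 library other than shCtrl 2 for NOP14 (values of -0.26 to -0.18), without shCtrl 1 or shCycD1 3 for RRP12 (both -0.23) and without shCtrl 1 or 3 for RCL1 (-0.35 and -0.38).

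NOB1 and IMP4 went up in JeKo-1. NOB1 encodes the endonuclease that makes the final cut of the small subunit RNA in the cytoplasm. Its JeKo-1 libraries were at 63.8, 58.7 and 60.4 RPKM in shCtrl and 86.7, 89 and 82.8 RPKM in shCycD1, and it rose by 0.50 ± 0.07 (SE, adjusted p = 0.000545), a mean 41.3% higher. In Granta-519 they were at 57.6, 59.1 and 53.6 RPKM in shCtrl and 63, 63.5 and 64.3 RPKM in shCycD1, also without overlap, at 0.16 ± 0.07 (SE, adjusted p = 0.0887). IMP4, a partner of the snoRNA that guides early cleavage, was at 128, 121 and 108 RPKM in shCtrl and 177, 186 and 160.2 RPKM in shCycD1 of JeKo-1 and rose by 0.55 ± 0.09 (SE, adjusted p = 0.00126). Its Granta-519 groups overlapped, at 167, 168 and 143 RPKM in shCtrl and 167, 158 and 166 RPKM in shCycD1, with a change of 0.05 ± 0.08 (SE, adjusted p = 0.696). WDR43, WDR75, TSR1, DDX10 and BYSL were called in neither line, with values of -0.17 to 0.10 in Granta-519 and -0.21 to -0.0038 in JeKo-1.

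Genes of large subunit processing included 4 of the 11 genes called lower in both lines. Of 17 genes 6 fell in Granta-519 (median -0.09, and 0.65 with spike-in scaling) and 8 in JeKo-1 (median -0.17), and 0 rose in either (limma; 0 also at an unadjusted p under 0.05). The fallen shares were 35.3% and 47.1%, against 18.2% and 27.8% of all genes, of which 22.4% and 36.7% rose. RRP1B, a nucleolar protein related to RRP1, stood at 23, 19.5 and 23.8 RPKM in shCtrl and 14.5, 16.2 and 15.8 RPKM in shCycD1 of Granta-519. JeKo-1 libraries were at 34.6, 35.3 and 37.7 RPKM in shCtrl and 23.8, 20.8 and 25.3 RPKM in shCycD1. It fell by 0.49 ± 0.10 (SE, adjusted p = 0.00777) and by 0.62 ± 0.09 (SE, adjusted p = 0.000873). EBNA1BP2, an assembly factor of the early large subunit, was at 153, 166 and 150.3 RPKM in shCtrl and 123, 112 and 132 RPKM in shCycD1 of Granta-519 and at 73, 70.3 and 73.5 RPKM in shCtrl and 47.2, 55.1 and 44.6 RPKM in shCycD1 of JeKo-1. It fell by 0.35 ± 0.08 (SE, adjusted p = 0.0145) and by 0.56 ± 0.09 (SE, adjusted p = 0.00122).

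MRTO4, which holds the place of a stalk protein in the immature large subunit, was at 61.1, 72.4 and 58.7 RPKM in shCtrl and 46.5, 48.7 and 53.7 RPKM in shCycD1 of Granta-519. In JeKo-1 it was at 76.7, 70.02 and 77.8 RPKM in shCtrl and 56.3, 54 and 57.1 RPKM in shCycD1. MRTO4 fell by 0.36 ± 0.10 (SE, adjusted p = 0.0282) and by 0.42 ± 0.07 (SE, adjusted p = 0.00153). RRS1, which helps bring the small ribosomal RNA of the large subunit into place, was at 414, 446 and 375 RPKM in shCtrl and 346, 310.4 and 357 RPKM in shCycD1 of Granta-519. Its JeKo-1 libraries were at 18.1, 18.5 and 18.3 RPKM in shCtrl and 15.1, 12.3 and 14.7 RPKM in shCycD1. RRS1 fell by 0.28 ± 0.09 (SE, adjusted p = 0.0476) and by 0.38 ± 0.10 (SE, adjusted p = 0.0104). The Granta-519 call of MRTO4 was lost without shCtrl 1 or shCycD1 1 or 2 (values of -0.39 to -0.32), and that of RRS1 without any 1 library other than shCtrl 3 (values of -0.32 to -0.22).

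**Figure D3:**
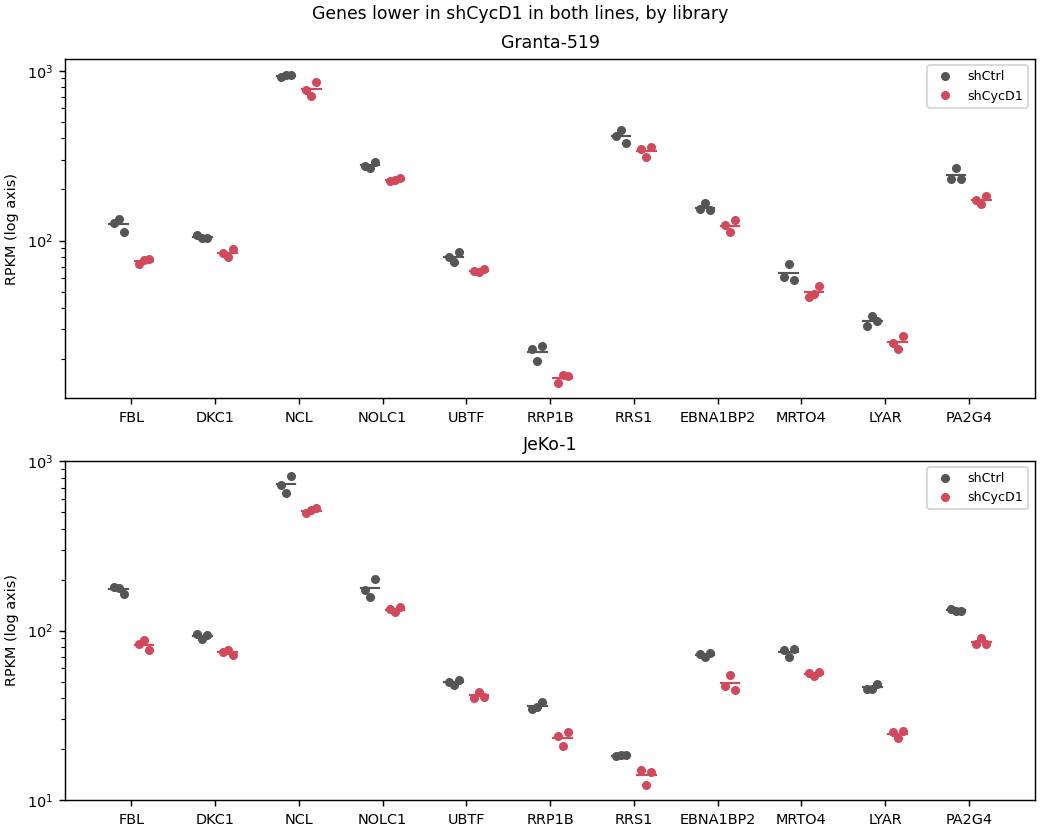
RPKM (y axis, log scale, per line) of the 11 genes called lower in both lines, in the 3 shCtrl (grey) and 3 shCycD1 (red) libraries; each point is 1 library and each short bar a group mean. For each of these genes every shCycD1 library lies below every shCtrl library in both lines, in values as deposited, and with spike-in scaling the Granta-519 changes lie above 0.

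BRIX1, WDR12, GNL2 and DDX18 were called lower in JeKo-1 without being called in Granta-519. BRIX1, which binds the large subunit precursor, was at 78.5, 75.1 and 82.8 RPKM in shCtrl and 45.7, 46.6 and 49.5 RPKM in shCycD1 and fell by 0.73 ± 0.07 (SE, adjusted p = 0.000114). In Granta-519 its groups overlapped, at 58.6, 76.2 and 60.7 RPKM in shCtrl and 62.1, 56.8 and 60.9 RPKM in shCycD1, with a change of -0.11 ± 0.11 (SE, adjusted p = 0.46). WDR12, which works in a complex with BOP1 and PES1, was at 42.3, 43.7 and 44.3 RPKM in shCtrl and 27.8, 31.3 and 29.96 RPKM in shCycD1 of JeKo-1 and fell by 0.54 ± 0.07 (SE, adjusted p = 0.000523). Granta-519 libraries of WDR12 were level, at 13.1, 11.4 and 13.3 RPKM in shCtrl and 12.4, 12.2 and 13.3 RPKM in shCycD1, with a change of 0.01 ± 0.09 (SE, adjusted p = 0.956). DDX18, an RNA helicase, was at 73.9, 81.2 and 87.8 RPKM in shCtrl and 57.2, 61.3 and 64.8 RPKM in shCycD1 of JeKo-1 and fell by 0.40 ± 0.09 (SE, adjusted p = 0.00517). It overlapped in Granta-519, at 158, 142 and 164 RPKM in shCtrl and 158, 172 and 164 RPKM in shCycD1, with a change of 0.09 ± 0.08 (SE, adjusted p = 0.388). GNL2, a nucleolar GTPase, fell by 0.38 ± 0.10 (SE, adjusted p = 0.0146) and was at -0.09 ± 0.09 (SE, adjusted p = 0.462) in Granta-519.

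BOP1 and RRP1 were called lower in Granta-519 and not in JeKo-1. The BOP1 libraries were at 14.5, 14.3 and 12.5 RPKM in shCtrl and 10.4, 10.6 and 12.2 RPKM in shCycD1, without overlap, and it fell by 0.30 ± 0.10 (SE, adjusted p = 0.0452). In JeKo-1 they were at 36, 30.7 and 27.8 RPKM in shCtrl and 36, 38.2 and 33.9 RPKM in shCycD1, overlapping, with a change of 0.20 ± 0.11 (SE, adjusted p = 0.142). RRP1, a processing factor of the large subunit RNA, was at 30.7, 28.1 and 30.04 RPKM in shCtrl and 22, 24.6 and 25.8 RPKM in shCycD1 of Granta-519 and fell by 0.29 ± 0.08 (SE, adjusted p = 0.0303). In JeKo-1 it was at 39.2, 32.5 and 35.3 RPKM in shCtrl and 30.6, 31.6 and 32.2 RPKM in shCycD1, and its change was -0.17 ± 0.09 (SE, adjusted p = 0.113), with a difference between the lines of -0.12 ± 0.12 (SE, adjusted p = 0.449). The Granta-519 call of BOP1 ended without shCtrl 1 or 2 or shCycD1 1 or 2 (values of -0.28 to -0.26), and that of RRP1 without shCtrl 1 or 3 or shCycD1 1 or 2 (-0.31 to -0.23). In JeKo-1, BOP1 was called higher without shCtrl 1 (0.30).

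PES1, BOP1 and WDR12 form a complex. PES1 was at -0.01 and -0.0039, BOP1 at -0.30 and 0.20, and WDR12 at 0.01 and -0.54, in Granta-519 and JeKo-1. With a GC correction, described further on, all 3 were called lower in JeKo-1, at -0.31, -0.37 and -0.19. NOP2, NOP16, GNL3, PPAN, NIP7 and GRWD1, like PES1, were called in neither line. GNL3 encodes nucleostemin, a marker of proliferating cells, and was at 0.01 ± 0.06 (SE, adjusted p = 0.945) and -0.09 ± 0.11 (SE, adjusted p = 0.46).

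Other nucleolar growth factors fell in JeKo-1 in 3 of 3 cases (median -0.68) and in Granta-519 in 2 of 3 (median -0.41, and 0.33 with spike-in scaling). The fallen shares of all genes were 27.8% in JeKo-1 and 18.2% in Granta-519. LYAR, a nucleolar zinc finger protein linked to cell growth, was at 31.4, 35.8 and 33.4 RPKM in shCtrl and 24.9, 23 and 27.5 RPKM in shCycD1 of Granta-519. In JeKo-1 it was at 45.2, 45.3 and 48.6 RPKM in shCtrl and 25.2, 23.1 and 25.5 RPKM in shCycD1. LYAR fell by 0.41 ± 0.09 (SE, adjusted p = 0.0119) and by 0.90 ± 0.07 (SE, adjusted p = 5.52e-05). PA2G4, a proliferation-associated protein that binds ribosomes, was at 229, 267 and 230.0 RPKM in shCtrl and 174, 164 and 183 RPKM in shCycD1 of Granta-519. In JeKo-1 it was at 134, 131 and 131 RPKM in shCtrl and 83.1, 90.4 and 83.5 RPKM in shCycD1. PA2G4 fell by 0.48 ± 0.09 (SE, adjusted p = 0.00538) and by 0.62 ± 0.06 (SE, adjusted p = 0.00015). DDX21, a helicase that acts on ribosomal RNA, was at 169, 163 and 199 RPKM in shCtrl and 115, 93.9 and 122 RPKM in shCycD1 of JeKo-1 and fell by 0.68 ± 0.12 (SE, adjusted p = 0.00198). Its Granta-519 groups overlapped, at 198, 174 and 206 RPKM in shCtrl and 159, 182 and 166 RPKM in shCycD1, with a change of -0.18 ± 0.09 (SE, adjusted p = 0.147).

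Across the roles, 11 genes fell in both lines: FBL, DKC1, NCL, NOLC1, UBTF, RRP1B, RRS1, EBNA1BP2, MRTO4, LYAR and PA2G4. A further 15 were called lower in JeKo-1 without a call in Granta-519, and 4 in Granta-519 without a call in JeKo-1 (NOP56, RRP9, BOP1 and RRP1). In 14 genes neither line gave a call. The changes of the 50 genes in the lines correlated at a Pearson r of 0.59 and a Spearman rho of 0.56, which describes these genes within 2 sets of libraries. Over the 10653 genes tested in both lines r was 0.56. In 32 genes both values were below 0 and in 5 both were above. A fall of at least 0.5 was called for 15 genes in JeKo-1 and for 1, FBL, in Granta-519. The gene counts in this paragraph were not made over all genes, so they describe the 50 genes alone.

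Single libraries weighed more in Granta-519. Of its 16 calls 7 held without any 1 of the 6 libraries, and 15 falls became 7 without shCycD1 1 and 8 without shCtrl 1 or shCycD1 2. Of the 31 calls in JeKo-1 23 held, and the 5 rises became 2 without shCtrl 2 and 3 without any 1 shCycD1 library.

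Whether a gene moved unequally in the lines was tested in a joint model of all 12 libraries. The Granta-519 change was above the JeKo-1 change in 10 genes (20%, where 19.3% of the 10653 genes were called that way) and below it in 3 (6%, against 22.6%; 41.9% of all genes were called either way), with a median difference of 0.13, against -0.02 over all genes. The share of 20% is close to that of all genes. With spike-in scaling 25 members were above (37.4% of all genes) and 0 below (1.34%; limma, 0 also at an unadjusted p under 0.05). The 10 genes fell in JeKo-1 by more: GAR1 differed by 0.73 ± 0.18 (SE, adjusted p = 0.00718), BRIX1 by 0.62 ± 0.13 (SE, adjusted p = 0.00325), WDR12 by 0.55 ± 0.11 (SE, adjusted p = 0.00195) and UTP15 by 0.53 ± 0.14 (SE, adjusted p = 0.00865). FBL and LYAR fell in both lines and also differed, by 0.36 ± 0.11 (SE, adjusted p = 0.0255) and 0.49 ± 0.12 (SE, adjusted p = 0.00534). The others were DDX21 (0.50 ± 0.16 (SE, adjusted p = 0.0264)), DDX18 (0.49 ± 0.12 (SE, adjusted p = 0.006)), NOP58 (0.49 ± 0.14 (SE, adjusted p = 0.018)) and NPM1 (0.40 ± 0.14 (SE, adjusted p = 0.0385)). The 3 genes with the lower change in Granta-519 were IMP4 at -0.51 ± 0.12 (SE, adjusted p = 0.00708), BOP1 at -0.50 ± 0.15 (SE, adjusted p = 0.018) and NOB1 at -0.33 ± 0.09 (SE, adjusted p = 0.0107). The natural log of the JeKo-1 table is inferred, and if that table held log2 values the calls of FBL (0.0385), NOP58 (0.28), NPM1 (0.24), LYAR (0.23), DDX21 (0.29) and NOB1 (-0.19) would end. Quantile normalization ended those of FBL (0.21), NOP58 (0.37), NPM1 (0.29) and DDX21 (0.30). Of the 15 genes called lower in JeKo-1 and not in Granta-519, 7 did not pass this test as deposited. A difference between the lines was thus not shown in these values for NHP2, NOP14, RRP12, UTP20, HEATR1, RCL1 and GNL2. With the GC correction described below, the difference of NHP2 was called (-0.14 in Granta-519 and -0.52 in JeKo-1). Of 14 small subunit genes 1 was then called above, and RRP12 had the highest difference of these, 0.56.

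**Figure D4:**
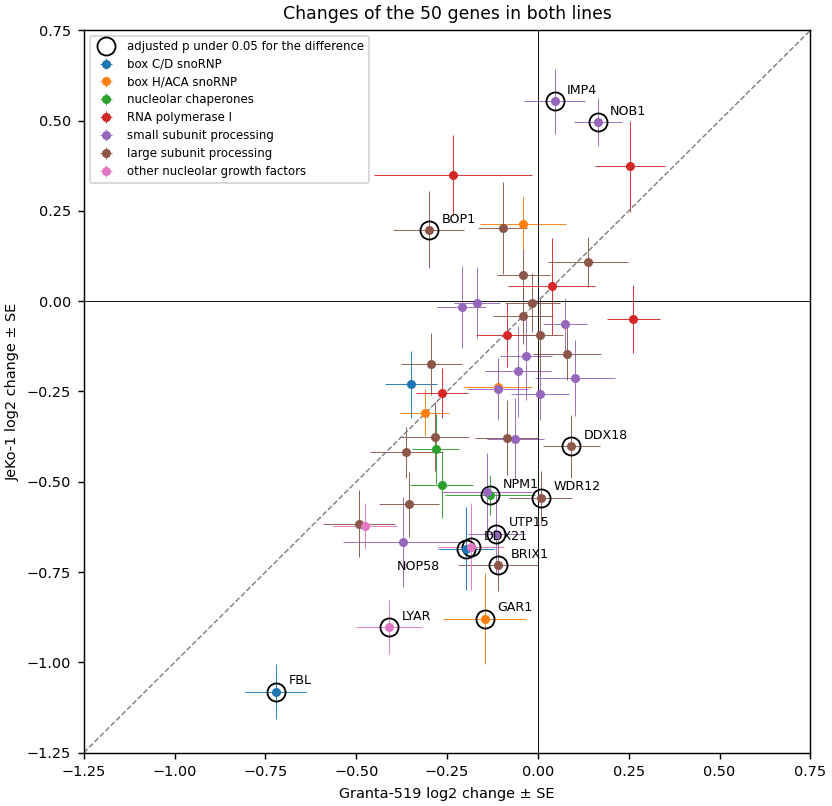
Log2 change (shCycD1 minus shCtrl, as deposited) in Granta-519 (x axis) and in JeKo-1 (y axis) of the 50 genes, coloured by role, with standard errors as bars (n = 3 libraries a group); circled genes had an adjusted p under 0.05 for the difference and the dashed line marks equal change. Most points lie below the dashed line, with 34 genes lower in JeKo-1, and FBL is lowest in both; with spike-in scaling all Granta-519 values lie above 0.

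GC content moved with the changes in JeKo-1. The log2 change of a gene and the GC content of its transcript correlated at r of 0.34 over all JeKo-1 genes and 0.43 over the 50, and at 0.02 and -0.20 in Granta-519. These are descriptions across genes. With a GC correction 30 members fell and 4 rose in JeKo-1 (26.6% and 36.5% of all genes) with a median of -0.31, against 0.10 over all genes. Single values moved: DDX18 went to -0.06, WDR12 to -0.19, HEATR1 to -0.22, UTP15 to -0.25, BRIX1 to -0.33 and NOB1 to 0.29, while RRP12 went to -0.57, RRS1 to -0.63 and UBTF to -0.48. The calls of DDX18, UTP15, GNL2 (-0.17) and POLR1A (0.23) ended. Falls were called in addition for NOP56 (-0.32), RRP9 (-0.40), BYSL (-0.28), PES1 (-0.31), RRP1 (-0.55) and GRWD1 (-0.38). BOP1 changed sign in JeKo-1, to a called -0.37, and the test of the difference then gave 6 members above (16.6% of all genes) and 1 below (19.1%). NHP2, not called in the difference as deposited, was among the 6. Of the 13 differences only GAR1, IMP4 and FBL kept their call under that correction, and without single libraries those of FBL (0.29 to 0.34), NPM1 (0.32 to 0.43) and DDX21 (0.38 to 0.44) were lost. FBL lost it without shCtrl 3 or shCycD1 3 of Granta-519 or shCtrl 1 or 2 or shCycD1 3 of JeKo-1. DDX21 lost it without shCtrl 2 or shCycD1 2 of Granta-519 or shCtrl 3 or shCycD1 2 of JeKo-1, and NPM1 without any 1 library other than shCtrl 2 or shCycD1 2 of Granta-519.

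Among the 42 members with a promoter window, called genes stood both with and without an E-box. Of the 18 members with CACGTG 5 fell and 0 rose in Granta-519 (median -0.13), and of the 24 without it 6 fell and 1 rose (median -0.10). In JeKo-1 10 fell and 2 rose with the E-box (median -0.31), and 10 fell and 3 rose without it (median -0.20). Among the promoters printed above, FBL and MRTO4 fell in both lines, with the E-box after the start, at positions 7 and 15. NOP10 rose in JeKo-1, a call lost without some single libraries, and has the same letters before the start, at position -11. No test was made of this split.

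MYC RNA stood at or above its control level. Its libraries were at 101, 75.1 and 95.1 RPKM in shCtrl and 88.7, 109 and 90.7 RPKM in shCycD1 of Granta-519, overlapping, with a change of 0.10 ± 0.13 (SE, adjusted p = 0.603), and it was called higher there with spike-in scaling (0.84). In JeKo-1 they were at 252, 135 and 173 RPKM in shCtrl and 533, 336 and 466 RPKM in shCycD1, without overlap, and MYC rose by 1.27 ± 0.25 (SE, adjusted p = 0.00314). The difference between the lines was -1.18 ± 0.31 (SE, adjusted p = 0.0103). In JeKo-1, 26 members were called lower in the same libraries in which MYC RNA was called higher. MYC protein was not measured. MXI1, a protein that competes with MYC for its partner MAX, rose by 0.72 ± 0.09 (SE, adjusted p = 0.00122) in Granta-519 and by 1.35 ± 0.16 (SE, adjusted p = 0.00027) in JeKo-1. MAX rose as well, by 0.30 ± 0.08 (SE, adjusted p = 0.0257) in Granta-519, and was called higher in JeKo-1. Its difference between the lines was -0.18 ± 0.15 (SE, adjusted p = 0.356). The part of these genes in the falls was not tested.

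Among other genes of the pathway more fell than rose in values as deposited. Of 118 further genes of RNA polymerase I, subunit processing, snoRNP assembly and the RNA exosome, 29 fell and 10 rose in Granta-519 (24.6% and 8.47%, against 18.2% and 22.4% of all genes; median -0.10, and 0.62 with spike-in scaling), and 53 fell and 15 rose in JeKo-1 (44.9% and 12.7%, against 27.8% and 36.7%; median -0.20). With a GC correction 38 of the 109 genes that could be corrected fell and 19 rose in JeKo-1 (34.9% and 17.4%, against 26.6% and 36.5%; median -0.11), and with spike-in scaling 15 of the 118 fell and 2 rose there. Small subunit factors were lower in 9 of 40 cases and higher in 1 in Granta-519, and in 19 and 3 in JeKo-1 (12 and 4 of 37 with the GC correction). Of large subunit factors 9 of 43 were lower and 5 higher in Granta-519 and 14 lower and 8 higher in JeKo-1. Of 9 snoRNP assembly factors 2 fell in Granta-519 and 6 in JeKo-1, with 0 risen (limma; 0 also at an unadjusted p under 0.05). The GC correction gave 3 fallen and 1 risen of 8 in JeKo-1, and quantile normalization 6 fallen and 1 risen of 9. The Granta-519 shares of fallen genes were 22.5% for small subunit, 20.9% for large subunit and 22.2% for snoRNP assembly factors, near the 18.2% of all genes, and the 32.6% of large subunit factors in JeKo-1 was near the 27.8% there. Small subunit and snoRNP assembly factors fell in 47.5% and 66.7% of cases in JeKo-1 (32.4% and 37.5% with the GC correction). Of 12 further polymerase I genes 5 fell and 3 rose in Granta-519 (41.7% and 25%, against 18.2% and 22.4% of all genes). Their median there was -0.32, and 0.37 with spike-in scaling. In JeKo-1 4 of them fell and 3 rose (33.3% and 25%, against 27.8% and 36.7%), with a median of -0.19.

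The RNA exosome, which trims the ends of ribosomal RNA, was lower in 4 of 14 genes and higher in 1 in Granta-519, and lower in 10 and higher in 1 in JeKo-1 (6 and 2 of 13 with the GC correction). The shares of fallen genes were 28.6% in Granta-519, against 18.2% of all genes, and 71.4% in JeKo-1, against 27.8%. With the GC correction the JeKo-1 share was 46.2%, against 26.6%. EXOSC9, a subunit of its ring, was at 34.1, 41.5 and 38.8 RPKM in shCtrl and 17.2, 17.3 and 20.8 RPKM in shCycD1 of Granta-519 and at 89.7, 77.1 and 91.7 RPKM in shCtrl and 35.9, 36 and 37.9 RPKM in shCycD1 of JeKo-1. It fell by 1.03 ± 0.11 (SE, adjusted p = 0.000663) and by 1.22 ± 0.09 (SE, adjusted p = 2.56e-05). EXOSC8, another ring subunit, fell by 0.68 ± 0.07 (SE, adjusted p = 0.000526) and by 1.15 ± 0.07 (SE, adjusted p = 1.84e-05). The GC correction put both at -0.79 in JeKo-1, still called. NOL12, a nucleolar RNA-binding protein, fell in Granta-519 by 0.77 ± 0.12 (SE, adjusted p = 0.00284) and was at -0.15 ± 0.11 (SE, adjusted p = 0.235) in JeKo-1, where the GC correction made it a call (-0.45). With spike-in scaling the Granta-519 values of EXOSC9 (-0.29), EXOSC8 (0.057) and NOL12 (-0.037) were not called. TAF1C, a subunit of the polymerase I selectivity factor, rose by 0.45 ± 0.09 (SE, adjusted p = 0.00959) and by 1.25 ± 0.13 (SE, adjusted p = 0.000174).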

How the data were processed

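Gene expression was measured by RNA sequencing in 12 libraries, 3 per group, grouped by sample title. Total RNA was made into libraries with a stranded mRNA kit, per the labels' protocols. FastQC, TopHat2 2.1.1, limma 3.9 and the builds GRCh37 and hg19 stand in the submitters' processing notes without a stated role. Read counter, annotation, strand setting and filters: not given in the sources used here. The authors deposited 1 table per line (25368 rows in the first line, 25370 in the second, with 92 spike-in RNAs each). The authors deposited them as logs of RPKM + 1, taken here to be natural log values. In Granta-519 this was tested: low values times the gene's genomic span were whole multiples of 1 step in 74.6 to 79% of cases with the natural log and 50.6 to 54.3% with base 2 (tolerance 0.1). In JeKo-1 no base gave whole steps (23.1 to 27.7%), and the natural log is inferred, not settled, from the spread of spike-in values (SD ratio to Granta-519 of 0.972, against 0.703 with base 2). Steps gave whole reads too rarely for a count test.

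Values were taken out of the log, genes reaching 1 RPKM in 3 or more of a line's 6 libraries were kept, and log2(RPKM + 0.5) was fitted in each line by limma 3.58.1 (R 4.3.3; trended empirical Bayes). A joint fit of 10653 genes gave the difference between the lines. Benjamini-Hochberg adjustment ran over all genes tested. With 3 libraries a group, p-values measure the spread between these libraries. GC content came from GENCODE transcripts for 89.5% of 23708 symbols, and its correction removes a lowess curve of log2 level on GC from each library. The fits were tested on simulated data. Replicate numbers were not taken as pairs, because not every same-numbered pair of libraries deviated together at r over 0.1. The values were 0.01, -0.12 and 0.03 in Granta-519 and 0.19, 0.09 and 0.10 in JeKo-1. All 6 JeKo-1 libraries still deviated most like their own number in the other group, and 0 did in Granta-519. A fit with a block for the replicate number is therefore given below as an alternative.

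The members and gene lists were chosen with earlier results of these data known. Full values are given for members called in both lines, for the 10 largest called changes per line, for members called in the difference and for those of highest level; from the other pathway lists the 3 largest called changes per line are named, and MYC and CCND1 are given in every library. HEATR1, POLR1A, POLR1C, RRN3, NOP10, RRP9, MXI1 and MAX were described in addition after their values were seen. Figures were drawn with matplotlib 3.10.9.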

Additional observations from a re-analysis of the deposited data

Results flagged for a closer look

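A joint test of the difference between the lines, Granta-519 change minus JeKo-1 change (limma, adjusted p under 0.05), singled out 13 of the 50 genes. Those with the higher value in Granta-519 were GAR1 (0.73), BRIX1 (0.62), WDR12 (0.55), UTP15 (0.53), DDX21 (0.50), DDX18 (0.49), LYAR (0.49), NOP58 (0.49), NPM1 (0.40) and FBL (0.36). Those with the lower value were IMP4 (-0.51), BOP1 (-0.50) and NOB1 (-0.33). Over all genes 41.9% were called in this test, so 13 of 50 is below that share. With a GC correction only GAR1, IMP4 and FBL kept the call, NOB1 went to -0.15 and BOP1 turned to 0.068. With spike-in scaling IMP4, BOP1 and NOB1 turned to 0.37, 0.35 and 0.54. The calls of FBL, NOP58, NPM1, LYAR, DDX21 and NOB1 would end if the JeKo-1 table held log2 values, and those of FBL, NOP58, NPM1 and DDX21 ended with quantile normalization.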

How the results depend on the processing

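Under spike-in scaling of Granta-519, 23 members rose and 0 fell (limma; 32 and 0 at an unadjusted p under 0.05), with a median of 0.62. Sign changed for 37 members. Those called in one setting or the other were FBL (0.027), NOP56 (0.40), DKC1 (0.44), NHP2 (0.64), NOP10 (0.71), NCL (0.49), NPM1 (0.62), NOLC1 (0.47), UBTF (0.48), WDR43 (0.70), RRP9 (0.52), BOP1 (0.42), PES1 (0.73), NOP2 (0.71), RRP1 (0.44), RRP1B (0.24), RRS1 (0.47), BRIX1 (0.64), EBNA1BP2 (0.40), GNL2 (0.65), MRTO4 (0.38), PPAN (0.65), GRWD1 (0.71), LYAR (0.33) and PA2G4 (0.27). The others, called in neither, were NOP58 (0.54), GAR1 (0.60), POLR1A (0.47), POLR1E (0.65), NOP14 (0.63), UTP15 (0.61), UTP20 (0.22), HEATR1 (0.60), DDX10 (0.47), BYSL (0.58), RCL1 (0.62) and DDX21 (0.57). In JeKo-1 it gave 0 risen and 6 fallen (0 and 13 unadjusted), median -0.37, and for the difference 25 above and 0 below (37 and 0 unadjusted), median 0.99, with NOB1 at 0.54, IMP4 at 0.37 and BOP1 at 0.35. GC correction gave a JeKo-1 median of -0.31 with BOP1 at -0.37, and differences of 6 above and 1 below, median 0.17, with BOP1 at 0.068 and PES1 at 0.27. The GC correction with the replicate block gave the same medians, differences and values, and in JeKo-1 also 8 risen members. RRN3 was at 0.26, WDR43 at 0.20 and WDR75 at 0.20 there. PPAN stood below 0 in that fit, at -0.27, and was not a rise. Quantile normalization gave a JeKo-1 median of -0.18, and differences with 5 below and a median of 0.054. If JeKo-1 values were log2, its median would be -0.17, with 6 differences above and a median of 0.050. Libraries of the same replicate number did not deviate together in Granta-519 and did so weakly in JeKo-1 (r of 0.09 to 0.19). The replicate block gave 0 risen and 7 fallen in Granta-519 (2 and 12 unadjusted), and in JeKo-1, where all 6 libraries deviated most like their own number, 5 risen and 28 fallen. Leaving out 1 library gave 0 to 2 risen and 7 to 14 fallen in Granta-519 (median -0.13 to -0.087), 2 to 5 and 22 to 26 in JeKo-1 (-0.27 to -0.22), and 8 to 10 above and 3 to 4 below for the difference (0.088 to 0.16). Pseudocounts of 1 and 0.1 changed no call of the 150 tests of members. Causes were not tested. The unknown depth of JeKo-1 sets no floor there.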
